A study of Mus musculus with 12 samples.

Results

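Pericentral WNT target genes were followed across 12 mouse liver libraries, 4 in each of 3 groups. The genes were Glul, Oat, Slc1a2, Rhbg, Axin2, Rnf43, Lgr5 and Tbx3, taken by symbol from the deposited table, which held all 8 among its 55903 genes. The first group was treated with the coded compound KSL0608-Se, and its description also names doxo. The second group is titled as an aged control and described as doxo, and is called aged/doxo here because the labels do not settle which of age or doxo it stands for. The third group is young control liver. Doxo is taken as short for doxorubicin, which damages DNA and is given as chemotherapy. The labels name no strain, age in numbers, dose or timing and do not tie libraries to animals, so each p-value covers library-to-library spread only, which may be technical.

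Hepatocytes along the liver lobule differ with their distance from the central vein. Endothelial cells of the central vein release WNT ligands and R-spondins, and in the adjoining hepatocytes these ligands stabilise beta-catenin, which acts with TCF and LEF factors on its target genes. The innermost layer of hepatocytes makes glutamine from ammonium that escaped the periportal urea cycle. Glul encodes glutamine synthetase, which carries out that step. Oat encodes ornithine aminotransferase, which turns ornithine towards glutamate, Slc1a2 encodes a glutamate transporter and Rhbg encodes an ammonium transporter. Axin2 encodes a scaffold of the complex that degrades beta-catenin, and Rnf43 encodes a ubiquitin ligase that removes WNT receptors from the cell surface, so both are feedback inhibitors of the pathway. Lgr5 encodes a receptor for R-spondins. Tbx3 encodes a T-box transcription factor.

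No promoter window was available for Rhbg, Tbx3 or Lgr5, the last being the member of lowest level found below. Promoter windows of 4 members are shown, from the abundant nitrogen-handling enzymes to the low feedback inhibitor Axin2. Each runs from 250 bases before to 50 bases after the start that RefSeq gives on GRCm38.p6, read 5′ to 3′ on the strand of the gene. The Glul window is chr1:153899679-153899978 (plus strand), the Oat window chr7:132576349-132576648 (minus strand), the Slc1a2 window chr2:102706188-102706487 (plus strand) and the Axin2 window chr11:108920099-108920398 (plus strand). Capitals mark a match on either strand to the TCF and LEF core, searched as the motif CTTTGAA, as the motif CTTTGAT, as the motif CTTTGTA and as the motif CTTTGTT.
Glul: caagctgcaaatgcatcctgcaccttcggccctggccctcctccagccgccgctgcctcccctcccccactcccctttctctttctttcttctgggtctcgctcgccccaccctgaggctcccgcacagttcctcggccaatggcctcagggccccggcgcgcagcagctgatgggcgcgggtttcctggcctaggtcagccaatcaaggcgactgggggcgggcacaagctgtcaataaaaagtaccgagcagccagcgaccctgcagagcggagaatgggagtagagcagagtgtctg
Oat: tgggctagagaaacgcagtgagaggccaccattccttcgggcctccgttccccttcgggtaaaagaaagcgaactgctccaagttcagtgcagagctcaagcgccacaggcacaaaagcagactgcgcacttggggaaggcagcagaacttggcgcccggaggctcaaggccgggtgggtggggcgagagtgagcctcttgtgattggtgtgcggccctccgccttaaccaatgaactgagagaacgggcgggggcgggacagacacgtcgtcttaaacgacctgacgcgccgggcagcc
Slc1a2: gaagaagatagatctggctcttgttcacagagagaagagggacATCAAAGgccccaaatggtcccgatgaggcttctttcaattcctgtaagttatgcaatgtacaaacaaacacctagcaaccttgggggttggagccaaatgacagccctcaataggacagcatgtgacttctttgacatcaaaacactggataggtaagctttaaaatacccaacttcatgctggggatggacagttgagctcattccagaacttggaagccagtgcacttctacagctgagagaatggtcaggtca
Axin2: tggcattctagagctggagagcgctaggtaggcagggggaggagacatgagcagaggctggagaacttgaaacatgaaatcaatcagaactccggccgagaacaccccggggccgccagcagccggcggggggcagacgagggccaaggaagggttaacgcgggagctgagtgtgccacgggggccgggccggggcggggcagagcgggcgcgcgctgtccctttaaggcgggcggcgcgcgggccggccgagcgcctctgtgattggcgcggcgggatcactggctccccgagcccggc
These motifs were found in 5.14%, 3.73%, 3.63% and 5.85% of mouse promoter windows of the same length, in that order. The Glul, Oat and Axin2 windows lie at the gene starts of GENCODE M21. The Slc1a2 window does not: its RefSeq start lies 47779 bases inside the gene, so it is an internal start, and the sequence at the outer start was not used here. The Slc1a2 window held 1 match, which begins 207 bases before the start and reads CTTTGAT on the opposite strand. No match was found in the Glul, Oat or Axin2 windows or in either Rnf43 window. The RefSeq starts of the Rnf43 windows lie 365 and 37175 bases inside the gene, so its outer start was not searched either. Of all 32851 windows, 16.9% held at least 1 of these motifs, so a single match among these windows describes the sequence and no more. The table of promoters had entries for 5 of the 8 members.

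All 8 members are annotated as protein-coding genes in GENCODE M21 (GRCm38), where they were found by their identifiers. Glul (ENSMUSG00000026473) lies on chromosome 1 from 153899944 to 153909723, Oat (ENSMUSG00000030934) on chromosome 7 from 132557478 to 132576398, and Slc1a2 (ENSMUSG00000005089) on chromosome 2 from 102658659 to 102790784. Rhbg (ENSMUSG00000104445) lies on chromosome 3 from 88242874 to 88254709 and Tbx3 (ENSMUSG00000018604) on chromosome 5 from 119670669 to 119684724. Axin2 (ENSMUSG00000000142) and Rnf43 (ENSMUSG00000034177) share chromosome 11, from 108920349 to 108950783 and from 87662722 to 87735539, and Lgr5 (ENSMUSG00000020140) lies on chromosome 10 from 115450311 to 115587780. Overlaps make single values less certain, because the sources used here do not say whether counting used strand, and reads may be split. Rhbg is overlapped on the same strand by the protein-coding annotation Gm38392 (mean 7.19 TPM over the 12 libraries), Oat by Fgfr2 (7.51 TPM) and Rnf43 by the intronic transcript 1110028F11Rik (2.61 TPM). The antisense transcript Tbx3os1 overlaps Tbx3 and averaged 1.05 TPM.

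Values are TPM, transcript abundances scaled for gene length to a fixed total of 1000000 per library, so levels can be compared between genes. TPM keeps no sequencing depth, and the depth behind each value is unknown. The hepatocyte product Alb stood between 16214 and 42495 TPM in these liver libraries, and 9568 to 11023 genes per library reached 1 TPM. A pair of libraries stood apart from the rest. In aged/doxo library 2 mitochondrial transcripts made up 27.6% of TPM, against 8.1% to 12.4% in the other libraries, and 54.8% of the 10883 tested genes had their lowest value of the 12 libraries there. In young control library 1 another 21.4% of tested genes had their lowest value. Differences below are also given without these libraries where leaving them out changed a direction or a value by much.

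The nitrogen-handling members were the abundant ones. Averaged over the 12 libraries, Oat stood at 368 TPM and Glul at 318 TPM, ranked 299 and 333 of all genes, and Slc1a2 at 24.6 TPM. Rhbg (6.21 TPM), Rnf43 (4.84 TPM) and Tbx3 (4.10 TPM) followed, and Axin2 (1.80 TPM) and Lgr5 (1.18 TPM) were lowest. The order was stable in part: Slc1a2 ranked 3 of the 8 in every library, and Axin2 and Lgr5 held the lowest 2 places in 11 of 12 libraries. Glul and Oat changed places, with Oat higher in 9 libraries, and Rhbg, Rnf43 and Tbx3 exchanged the places between, so neighbours within the Oat and Glul pair and within that trio did not differ beyond their spread. All 8 members averaged at least 1 TPM and entered the tests.

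**Figure D1:**
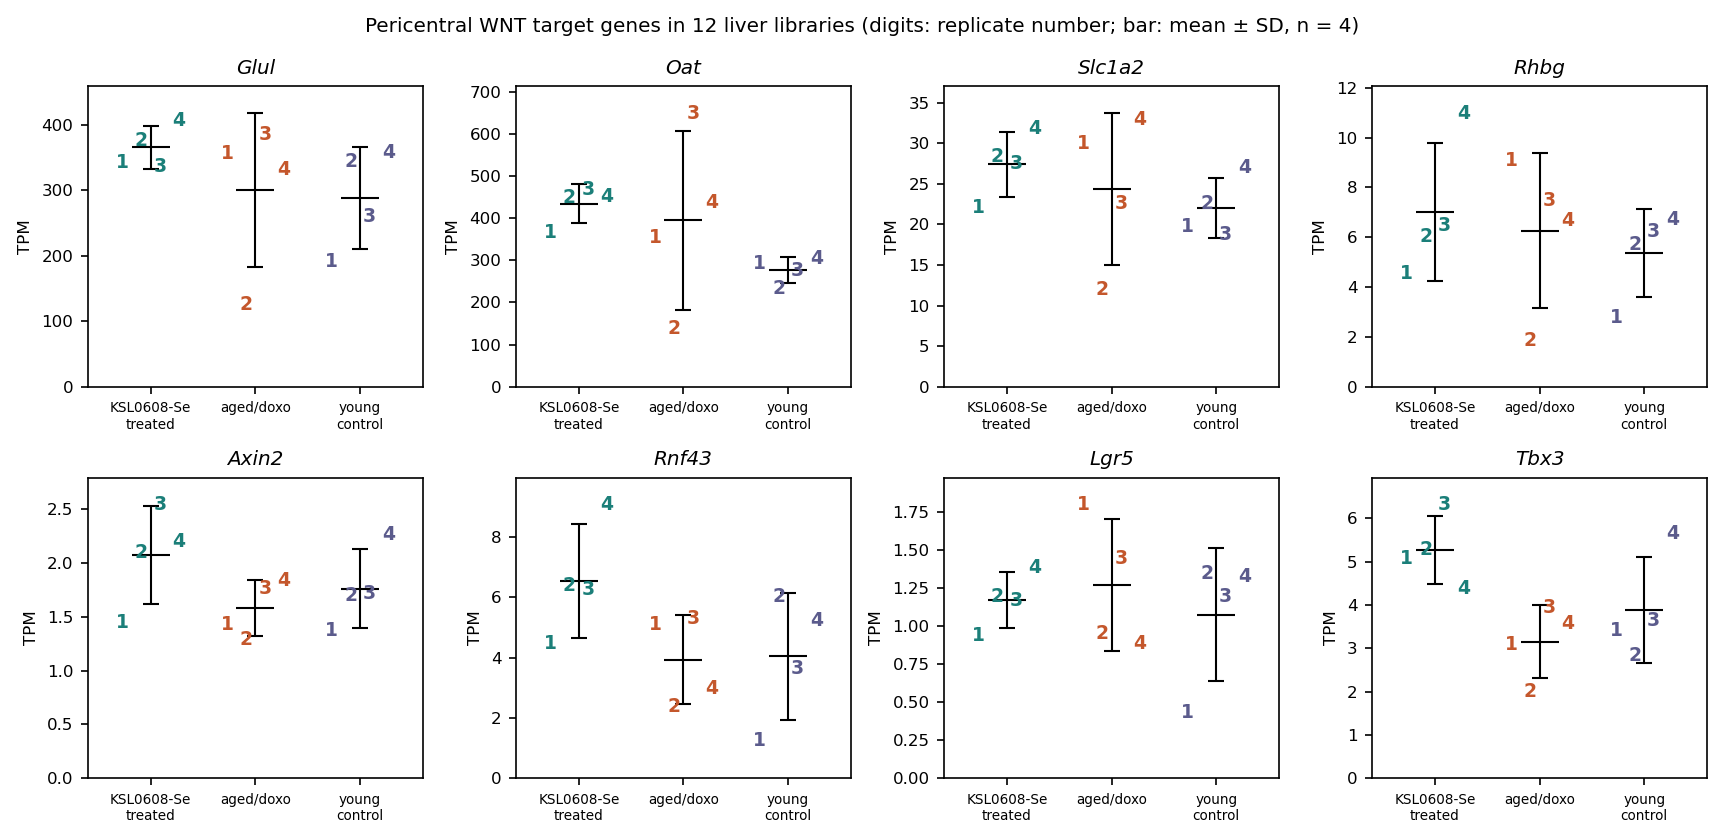
TPM of each of the 8 genes (y axis, from 0) in KSL0608-Se treated, aged/doxo and young control liver. Digits are single libraries by replicate number and bars are the mean ± SD (n = 4); aged/doxo library 2 is the lowest of its group in 7 of the 8 panels.

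Glul, the glutamine synthetase gene, stood at 342, 376, 337 and 407 TPM in KSL0608-Se treated libraries, at 356, 126, 385 and 332 TPM in aged/doxo libraries and at 191, 343, 259 and 358 TPM in young control libraries. The treated libraries lay close together, and 3 of the 4 aged/doxo libraries lay in or next to the same range, with library 2 far under them. Means were 365 ± 32.4 TPM in treated liver and 299.6 ± 117 TPM in aged/doxo liver, against 288 ± 78.0 TPM in young control liver (SD, n = 4). Without aged/doxo library 2 the aged/doxo mean was 357 ± 26.5 TPM (SD, n = 3).

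Oat, the ornithine aminotransferase gene, stood at 366, 448, 469 and 452 TPM in treated libraries, at 353, 138, 648 and 438 TPM in aged/doxo libraries and at 293, 233, 275 and 305 TPM in young control libraries. Every treated library was above every young control library, while the aged/doxo libraries held both the lowest and the highest value of the 12. Means were 434 ± 46.0 TPM in treated liver and 394 ± 211 TPM in aged/doxo liver, against 276 ± 31.3 TPM in young control liver (SD, n = 4). The ratio of Oat to Glul within a library, which scaling of the library does not touch, ran from 1.07 to 1.39 in treated, 0.993 to 1.69 in aged/doxo and 0.679 to 1.54 in young control libraries, so the groups overlapped in it.

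Slc1a2, the glutamate transporter gene, stood at 22.1, 28.4, 27.5 and 31.8 TPM in treated libraries, at 30.03, 11.99, 22.5 and 32.9 TPM in aged/doxo libraries and at 19.7, 22.6, 18.8 and 26.99 TPM in young control libraries. The groups overlapped in each comparison. Rhbg, the ammonium transporter gene, stood at 4.54, 6.04, 6.48 and 10.97 TPM in treated libraries, at 9.06, 1.85, 7.47 and 6.67 TPM in aged/doxo libraries and at 2.80, 5.70, 6.25 and 6.71 TPM in young control libraries. Rhbg was lowest in aged/doxo library 2 and next lowest in young control library 1, at 23.9% and 45.0% of the mean of the other 3 libraries of their groups. Its overlapping annotation Gm38392 averaged 6.61 TPM in treated liver and 8.64 TPM in aged/doxo liver, against 6.33 TPM in young control liver.

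Among the feedback genes, Axin2 stood at 1.45, 2.10, 2.54 and 2.20 TPM in treated libraries, at 1.43, 1.29, 1.76 and 1.84 TPM in aged/doxo libraries and at 1.37, 1.70, 1.72 and 2.26 TPM in young control libraries. Its whole range over the 12 libraries was 1.97-fold, the narrowest of the 8 members. Rnf43 stood at 4.46, 6.39, 6.27 and 9.06 TPM in treated libraries, at 5.08, 2.39, 5.30 and 2.97 TPM in aged/doxo libraries and at 1.25, 6.02, 3.65 and 5.23 TPM in young control libraries. Its range of 7.25-fold was the widest, and treated libraries held the 3 highest values. The R-spondin receptor gene Lgr5 stood at 0.94, 1.2, 1.17 and 1.39 TPM in treated libraries, at 1.80, 0.95, 1.45 and 0.89 TPM in aged/doxo libraries and at 0.43, 1.35, 1.2 and 1.33 TPM in young control libraries. The 3 groups overlapped in Axin2, Rnf43 and Lgr5.

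The transcription factor gene Tbx3 stood at 5.08, 5.29, 6.31 and 4.39 TPM in treated libraries, at 3.09, 2.00, 3.94 and 3.57 TPM in aged/doxo libraries and at 3.40, 2.83, 3.63 and 5.64 TPM in young control libraries. Every treated library was above every aged/doxo library, and young control library 4 reached into the treated range. Means were 5.27 ± 0.794 TPM in treated liver and 3.15 ± 0.842 TPM in aged/doxo liver, against 3.88 ± 1.22 TPM in young control liver (SD, n = 4). Its antisense transcript Tbx3os1, whose reads may not be separable from those of Tbx3, averaged 0.953 TPM in treated liver and 0.86 TPM in aged/doxo liver, against 1.35 TPM in young control liver.

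**Figure D2:**
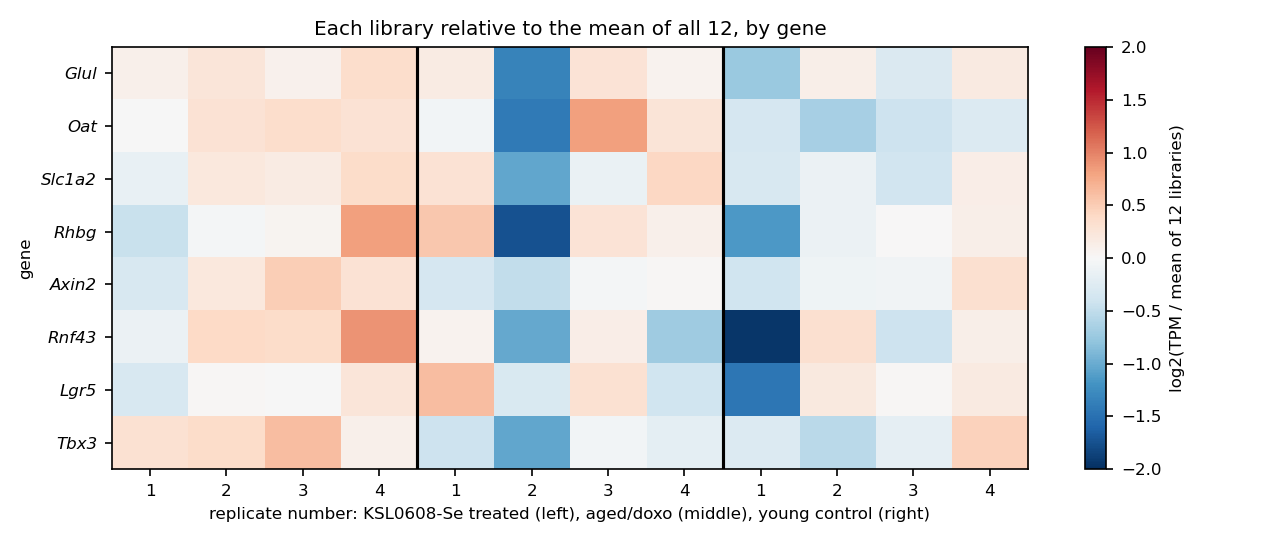
Log2 of each library's TPM over the mean of the 12 libraries (colour) for the 8 genes (rows), with the libraries of each group in columns. Aged/doxo library 2 and young control library 1 lie below the mean in all 8 rows (blue): 6 members have their lowest value of the 12 in the first and 2 members, Rnf43 and Lgr5, in the second.

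The members varied together over the 12 libraries, and less so over the 10 without the pair that stood apart. Over the 12 libraries the Pearson r between pairs of members in log2(TPM + 1) ranged from 0.11 to 0.89 with a median of 0.63, and all 28 pairs were positive. Without the 2 libraries it ranged from -0.34 to 0.68 with a median of 0.32, and 24 of 28 pairs were positive. The pairs share libraries and scaling, so these values describe the data and were given no test. Pairs of other genes were not summarised, so shared variation is not shown to be particular to these members. Of all tested genes, 54.8% were lowest of the 12 in aged/doxo library 2 and 21.4% in young control library 1. Glul and Rhbg were the most alike over the 12 libraries (r = 0.89, and 0.45 without the 2 libraries), and Axin2 and Tbx3 over the other 10 (r = 0.68). The spread within groups was close to that of other genes. The median coefficient of variation of the 8 members was 15.4% in treated liver, 37.8% in aged/doxo liver and 29.3% in liver of young controls, beside 17.7%, 36.9% and 29.9% over all tested genes in the same order of groups.

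The first comparison asked whether pericentral WNT targets differed in KSL0608-Se treated liver from aged/doxo liver. None of the 8 members changed by the test: limma, fitted on log2(TPM + 1) over all 10883 genes with Benjamini-Hochberg adjustment and a threshold of 0.05, called 0 of 8. Over all genes it called 0% as higher and 0.00919% as lower in treated liver. At an unadjusted p under 0.05 it marked 1 of 8 members, Tbx3, as higher, beside 3.82% of all genes higher and 0.946% lower. The log2 fold change of Tbx3 was 0.61 (SE 0.21, 95% interval 0.15 to 1.07, limma adjusted p = 0.427). Non-overlapping groups with treated liver higher were seen for this 1 member, beside 2.77% of all tested genes.

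Of the 8 log2 fold changes, 7 were above 0, but so were those of 81.0% of all tested genes, and the median of the members, 0.29, lay beside 0.30 for all genes. Relative to that median, 4 members were above it and 4 below. Rnf43 had the largest value, 0.63 (SE 0.35, 95% interval -0.12 to 1.38, adjusted p = 0.427), followed by Tbx3, Glul (0.40, 95% interval -0.31 to 1.11) and Oat (0.33, 95% interval -0.45 to 1.11). Axin2 (0.25, 95% interval -0.14 to 0.63), Slc1a2 (0.24, 95% interval -0.36 to 0.85) and Rhbg (0.23, 95% interval -0.60 to 1.06) lay under the median of all genes. Lgr5 had -0.05 (95% interval -0.50 to 0.41). Without aged/doxo library 2 the median of the members was -0.01, beside 0.13 for all genes, and 4 of 8 values were above 0. Glul then stood at 0.03, Oat at -0.11, Slc1a2 at -0.05, Rhbg at -0.17, Rnf43 at 0.47, Axin2 at 0.19, Lgr5 at -0.12 and Tbx3 at 0.46. With libraries scaled by medians of ratios in place of the deposited total, where the median of all genes was -0.0032, Slc1a2, Axin2, Oat, Rhbg and Lgr5 were under 0 and Tbx3 stood at 0.31.

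Markers of other liver cells were read beside this comparison. No gene of these lists was called by limma in any comparison. The 5 erythroid markers, haemoglobin genes and Alas2, summed to 846 to 1777 TPM in treated libraries and 1839 to 2568 TPM in aged/doxo libraries, which did not overlap, and to 836 to 1991 TPM in young control libraries; 4 of the 5 had an unadjusted p under 0.05 between treated and aged/doxo liver, all haemoglobin genes and lower in treated. Haemoglobin genes include near-identical copies, so the split of reads between them is uncertain. Of 10 endothelial markers 6 had an unadjusted p under 0.05, with Stab1 lower and the others higher in treated liver, and their median log2 fold change was 0.60, beside 0.30 for all genes. The 8 Kupffer cell markers had a median of 0.61 and summed to 123 to 185 TPM in treated, 49.8 to 320 TPM in aged/doxo and 122 to 204 TPM in young control libraries. Medians were 0.05 for 8 stellate cell markers, -0.20 for the 3 tested of 6 cholangiocyte markers and 0.29 for 7 hepatocyte markers. None of the erythroid, endothelial, Kupffer or stellate markers was at 0 in any library. Over all genes, 3.82% were higher and 0.946% lower in treated liver at an unadjusted limma p under 0.05. Without aged/doxo library 2 that cut was reached by 2 of 10 endothelial and 2 of 5 erythroid markers. The medians without that library were 0.59 for endothelial, 0.26 for Kupffer and -0.73 for erythroid markers, beside 0.13 for all genes. The part of these cells in the members' values was not tested.

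**Figure D3:**
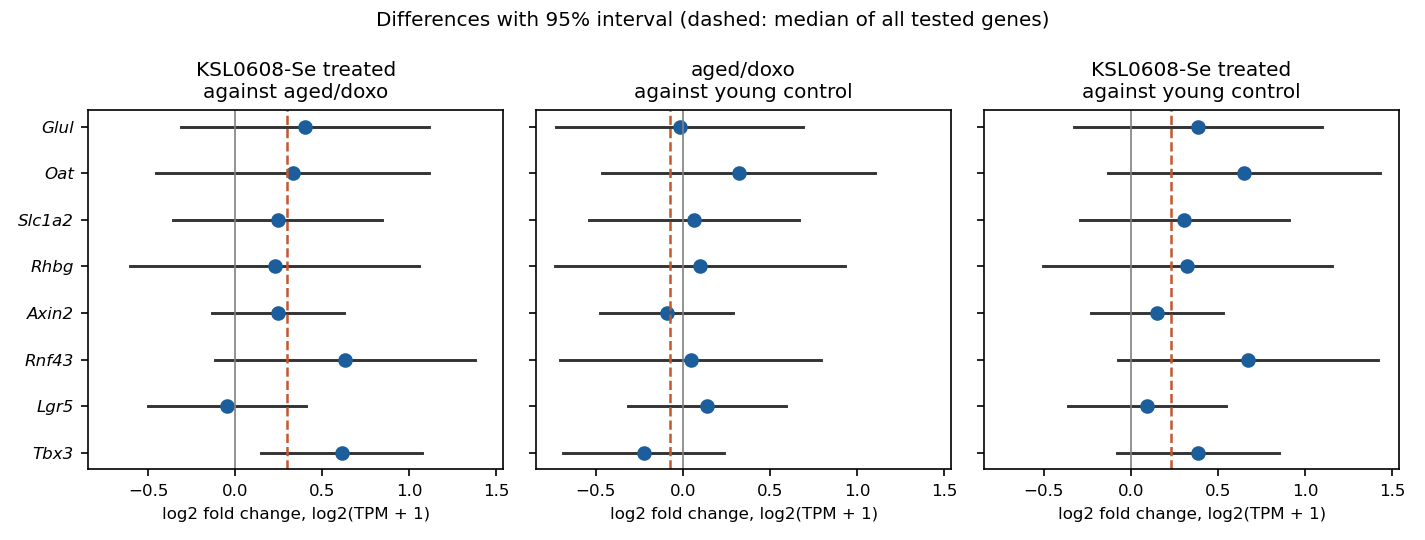
Log2 fold change of each gene (x axis, log2(TPM + 1) scale; points) with its 95% limma interval (lines) in the 3 comparisons, and the median of all tested genes (dashed). The interval of Tbx3 between treated and aged/doxo liver is the 1 of 24 that leaves out 0, and its adjusted p was 0.427.

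The second comparison set aged/doxo against young control liver. Again limma called 0 of 8 members, beside 0.00919% of all genes as higher and 0% as lower in aged/doxo liver, and 0 of 8 had an unadjusted p under 0.05, beside 1.19% higher and 0.781% lower over all genes. The adjusted p was 1 for each member. The median log2 fold change of the members was 0.05, beside -0.08 for all genes. Oat had the largest value at 0.32 (SE 0.36, 95% interval -0.46 to 1.1), and Tbx3 the lowest at -0.23 (SE 0.21, 95% interval -0.69 to 0.24). Lgr5 stood at 0.14, Rhbg at 0.10, Slc1a2 at 0.06, Rnf43 at 0.04, Glul at -0.02 and Axin2 at -0.09. The 8 intervals together reached from -0.73 (Rhbg) to 1.1 (Oat, log2), and each leaves room for differences of its own size only. The interval of Axin2 ran from -0.475 to 0.285 and that of Lgr5 from -0.31 to 0.59. The groups overlapped for each of the 8 members, while 0.689% of all tested genes lay wholly higher in aged/doxo liver and 0.312% wholly lower. Erythroid markers were above 0 in this comparison for 5 of 5 genes, with a median of 0.82, and 4 had an unadjusted p under 0.05; the endothelial median was -0.03 and the Kupffer median -0.49, and their part in the members' values was not tested.

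These values moved with the 2 libraries that stood apart. Without aged/doxo library 2, Oat stood at 0.75 (an unadjusted limma p under 0.05, adjusted p = 1), Rhbg at 0.50, Glul and Slc1a2 at 0.35 each, and the median of the members at 0.28, beside 0.10 for all genes. Without young control library 1, Rnf43 stood at -0.30, Glul at -0.20, Rhbg at -0.13 and Lgr5 at -0.03, and the median of the members was -0.15, beside -0.21 for all genes. Without both, Oat stood at 0.79, Slc1a2 at 0.31, Rhbg at 0.27 and Rnf43 at -0.14, and none of the 8 was called.

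The third comparison set KSL0608-Se treated against young control liver. It shares its treated libraries with the first comparison and its young control libraries with the second, so its values are not independent of theirs. Limma called 0 of 8 members, beside 0.0184% of all genes as higher and 0.00919% as lower in treated liver, and 0 of 8 had an unadjusted p under 0.05, beside 2.74% higher and 0.662% lower over all genes. All 8 log2 fold changes were above 0, as were 84.0% of those of all genes, and the median of the members was 0.35, beside 0.23 for all genes. Some of these signs changed: Axin2 (-0.04) and Lgr5 (-0.03) were under 0 with medians of ratios, Axin2 (-0.06) and Lgr5 (-0.08) with quantile normalization, and Lgr5 (-0.11) and Rhbg (-0.06) with the length slope as a covariate. Rnf43 (0.67, 95% interval -0.08 to 1.42) and Oat (0.65, 95% interval -0.13 to 1.43) had the largest values, with adjusted p of 0.734 each. Tbx3 had 0.39 (95% interval -0.08 to 0.85), Glul 0.38 (95% interval -0.33 to 1.09), Rhbg 0.32, Slc1a2 0.31, Axin2 0.15 and Lgr5 0.09. Oat was the 1 member whose groups did not overlap, beside 3.66% of all tested genes with treated liver higher. Without young control library 1 the median of the members was 0.23, beside 0.09 for all genes, and 7 of 8 values were above 0. Oat then stood at 0.68, Tbx3 at 0.35, Rnf43 at 0.33, Slc1a2 at 0.26, Glul at 0.20, Rhbg at 0.09, Axin2 at 0.08 and Lgr5 at -0.08. Oat had an unadjusted limma p under 0.05 without aged/doxo library 2 (adjusted p = 0.507), without both libraries (adjusted p = 0.985) and with the compared groups fitted alone (adjusted p = 0.543). Tbx3 and Rnf43 reached that cut in 1 alternative each. All 10 endothelial markers were above 0 in this comparison, with a median of 0.57, and 2 of them had an unadjusted p under 0.05, while the erythroid median was 0.09; the part of these cells was not tested.

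Genes that share the zone, the pathway or the metabolites of these members were looked at next, as counts and medians without a test of the lists. The wider pericentral list held 19 tested genes and none was called in any comparison. Its median log2 fold change was 0.25 between treated and aged/doxo liver, -0.03 between aged/doxo and young control liver and 0.26 between treated and young control liver, beside 0.30, -0.08 and 0.23 for all genes. Without aged/doxo library 2 the first of these was -0.01 and the second 0.30, beside 0.13 and 0.10 for all genes, and without young control library 1 the last was 0.16, beside 0.09. At an unadjusted limma p under 0.05, 3.82% of all genes were higher and 0.946% lower in treated than in aged/doxo liver. The shares were 1.19% and 0.781% for aged/doxo against young control liver, and 2.74% and 0.662% for treated against young control liver. Beside these, the test marked 0 of 19 between treated and aged/doxo liver, 1 between aged/doxo and young control liver and 4 between treated and young control liver. The 1 was Gstm3, a glutathione transferase gene named here after its values were seen, with a log2 fold change of 0.98 (95% interval 0.44 to 1.53, limma adjusted p = 1). Between treated and young control liver Gstm3 had 1.06 (95% interval 0.52 to 1.60, limma adjusted p = 0.684), and the other 3 genes were Rgn (0.56), Ahr (0.63) and Lhpp (0.53), the last 2 also named after their values were seen. Cyp2e1, a cytochrome P450 that oxidises ethanol and paracetamol, averaged 3627 ± 608 TPM in treated liver and 2911 ± 1396 TPM in aged/doxo liver, against 2961 ± 641 TPM in young control liver (SD, n = 4). Rgn, which encodes the calcium-binding protein regucalcin, averaged 871 ± 70.9, 752 ± 187 and 591 ± 21.6 TPM in these groups. Cyp2c29 averaged 960.2 ± 302.5 TPM in treated liver and 575 ± 396 TPM in aged/doxo liver, against 634 ± 352 TPM in young control liver. Pon1, the paraoxonase gene, averaged 597 ± 33.5 TPM in treated liver and 521 ± 189.5 TPM in aged/doxo liver, against 515 ± 44.9 TPM in young control liver.

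Other targets of the pathway were mostly low. Of 10 genes, 7 were tested and none was called in any comparison, with a median log2 fold change of -0.02 between treated and aged/doxo liver and 0.10 between aged/doxo and young control liver, or -0.06 and 0.23 without aged/doxo library 2. Notum, which encodes a secreted enzyme that inactivates WNT ligands, was the most abundant at 16.9 ± 2.22 TPM in treated liver and 18.3 ± 2.23 TPM in aged/doxo liver, against 17.5 ± 3.75 TPM in young control liver. Nkd1, another feedback inhibitor, averaged 3.79 ± 0.798 TPM in treated liver and 4.22 ± 1.11 TPM in aged/doxo liver, against 2.62 ± 0.710 TPM in young control liver, with 0.52 as the log2 fold change of aged/doxo over young control (95% interval 0.07 to 0.98, limma adjusted p = 1). The cell cycle gene Ccnd1 averaged 5.36 ± 2.35 TPM in treated liver and 3.11 ± 1.62 TPM in aged/doxo liver, against 2.71 ± 2.27 TPM in young control liver. Myc, a growth regulator, averaged 1.25 ± 0.734 TPM in treated liver and 4.54 ± 4.28 TPM in aged/doxo liver, against 2.52 ± 3.41 TPM in young control liver.

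WNT ligand and R-spondin genes were mostly under the mean of 1 TPM set for testing. Their list also held Porcn and Wls, described below, and Dkk3, Wif1 and Sfrp1. Of 12 genes of this list, 2 averaged at least 1 TPM and were tested, and neither was called. Rspo3, an R-spondin, averaged 1.46 ± 0.219 TPM in treated liver and 1.08 ± 0.159 TPM in aged/doxo liver, against 0.925 ± 0.112 TPM in young control liver, with a log2 fold change of 0.24 (95% interval -0.09 to 0.58) between treated and aged/doxo liver. Its value between treated and young control liver was 0.35 (95% interval 0.02 to 0.68, limma adjusted p = 0.734), and between aged/doxo and young control 0.11 (95% interval -0.22 to 0.44). Porcn, which encodes the enzyme that attaches a lipid to WNT ligands, averaged 1.30 ± 0.344, 1.23 ± 0.154 and 1.32 ± 0.323 TPM in the 3 groups in that order. The ligand gene Wnt2 averaged 1.4 ± 0.260 TPM in treated liver and 0.758 ± 0.338 TPM in aged/doxo liver, against 0.710 ± 0.490 TPM in young control liver, and was not tested because its mean over the 12 libraries was 0.956 TPM. Wls, which encodes the carrier of WNT ligands to the cell surface, averaged 0.903 ± 0.172 TPM in treated liver and 0.877 ± 0.255 TPM in aged/doxo liver, against 0.740 ± 0.162 TPM in young control liver and was not tested either. The 10 endothelial cell markers were all detected in every library and none was called; their summed level ranged from 56.2 to 109 TPM in treated, 39.8 to 95.8 TPM in aged/doxo and 37.5 to 80.9 TPM in young control libraries. Their part in the levels of the ligand genes was not tested, and in whole liver fewer cells of a type and less RNA per cell cannot be told apart.

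Receptors and transducers of the pathway gave 19 tested genes of 21 and no call in any comparison. Their median log2 fold change was 0.38 between treated and aged/doxo liver, -0.10 between aged/doxo and young control liver and 0.29 between treated and young control liver, beside 0.30, -0.08 and 0.23 for all genes. The first of these was 0.23 and the second 0.05 without aged/doxo library 2, and without young control library 1 the last was 0.14. Ctnnb1, the beta-catenin gene, averaged 85.8 ± 11.6 TPM in treated liver and 57.7 ± 26.3 TPM in aged/doxo liver, against 67.1 ± 14.4 TPM in young control liver, with a log2 fold change of 0.71 (95% interval -0.05 to 1.47, limma adjusted p = 0.427) between treated and aged/doxo liver. Csnk1a1, which encodes a kinase that primes beta-catenin for degradation, averaged 25.3 ± 6.66 TPM in treated liver and 15.4 ± 7.80 TPM in aged/doxo liver, against 16.9 ± 5.70 TPM in young control liver. The WNT co-receptor gene Lrp5 averaged 22.8 ± 4.44 TPM in treated liver and 15.2 ± 6.57 TPM in aged/doxo liver, against 17.4 ± 8.04 TPM in young control liver, and Dvl1, a signal transducer under the receptor, 14.6 ± 2.92, 15.6 ± 4.63 and 13.4 ± 2.99 TPM.

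Genes of the periportal end of ammonium handling gave no call either. Of 16 periportal genes and 12 tested genes of glutamate and ornithine metabolism, none was called in any comparison. The periportal median was 0.56 between treated and aged/doxo liver, -0.31 between aged/doxo and young control liver and 0.26 between treated and young control liver, and that of the glutamate and ornithine genes 0.62, -0.28 and 0.34. Without aged/doxo library 2 the medians between treated and aged/doxo liver were 0.18 for the periportal and 0.15 for the glutamate and ornithine genes, beside 0.13 for all genes, and those between aged/doxo and young control liver were 0.03 and 0.16, beside 0.10. Without young control library 1 the medians between treated and young control liver were 0.10 and 0.12, beside 0.09. Between treated and aged/doxo liver 3 of 16 periportal genes had an unadjusted p under 0.05, named here after their values were seen: G6pc (1.58, 95% interval 0.69 to 2.47) and Pck1 (1.31, 95% interval 0.42 to 2.20), both of glucose production, and Aldh1b1 (1.14, 95% interval 0.08 to 2.20), each with a limma adjusted p of 0.427. G6pc and Pck1 each had 0.99 between treated and young control liver, the 2 periportal genes with an unadjusted p under 0.05 there. Of all tested genes, 3.82% were higher and 0.946% lower at that limma cut between treated and aged/doxo liver. Between treated and young control liver the shares were 2.74% and 0.662%. Cps1, which fixes ammonium for the urea cycle, averaged 611 ± 204 TPM in treated liver and 349 ± 237 TPM in aged/doxo liver, against 409 ± 233 TPM in young control liver. Ass1, the urea cycle enzyme argininosuccinate synthase, averaged 2508 ± 534.5 TPM in treated liver and 1948 ± 850.3 TPM in aged/doxo liver, against 2054 ± 462 TPM in young control liver, and Cyp2f2, a periportal cytochrome P450, 752 ± 183, 518 ± 351 and 661 ± 252 TPM. Arg1, which releases the ornithine that Oat uses, averaged 1094 ± 74.6 TPM in treated liver and 905 ± 241 TPM in aged/doxo liver, against 913 ± 88.1 TPM in young control liver. Slc38a3, a glutamine transporter of the cells around the central vein, averaged 424 ± 110.4 TPM in treated liver and 283 ± 88.3 TPM in aged/doxo liver, against 288 ± 95.8 TPM in young control liver. Glud1, glutamate dehydrogenase, averaged 382 ± 57.3 TPM in treated liver and 263 ± 137 TPM in aged/doxo liver, against 288 ± 95.2 TPM in young control liver, and Got2, a mitochondrial aspartate aminotransferase, 289 ± 25.7, 204 ± 92.9 and 236 ± 75.3 TPM.

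**Figure D4:**
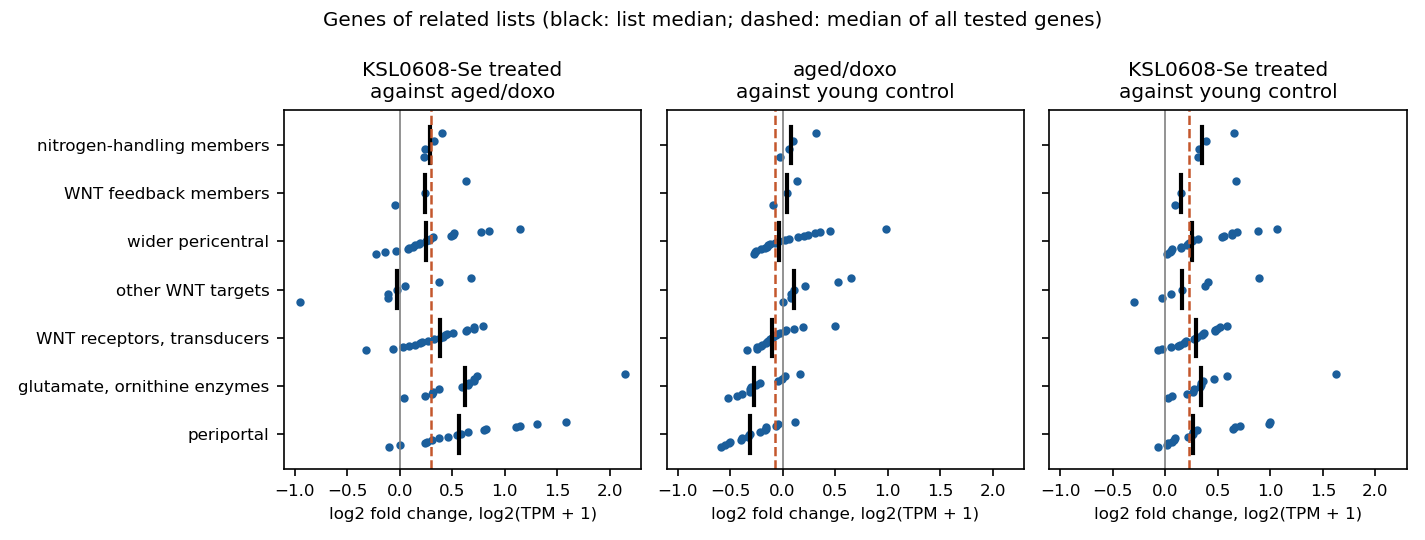
Log2 fold change (x axis, log2(TPM + 1) scale) of every tested gene of 7 lists (rows; points), the median of each list (black) and of all tested genes (dashed), in the 3 comparisons. No point passed the limma threshold. With all libraries the pericentral rows lie beside the dashed line between treated and aged/doxo liver, where the periportal median is 0.56. Without aged/doxo library 2 that median was 0.18, beside 0.13 for all genes. The wider pericentral median was then -0.01, that of the nitrogen-handling members -0.08 and that of the feedback row (Axin2, Rnf43 and Lgr5) 0.19. Tbx3 is in none of the 7 lists.

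The genes whose profile over the 12 libraries was most like that of each member were found by Pearson r in log2(TPM + 1) among tested genes with an established symbol. For Glul these were Agtr1a (r = 0.99), an angiotensin receptor gene, Timm17a (r = 0.98) and Cops4 (r = 0.98). For Oat they were Nol7, Eif3e and Stk3 (r = 0.92 each), for Slc1a2 Serpinb6a (r = 0.93) and Agbl3 (r = 0.92), and for Rhbg Napa (r = 0.97), Bcl2l12 (r = 0.96) and Vezt (r = 0.96). For Axin2 they were Rhoq (r = 0.93), Arrdc4 (r = 0.91) and Itga1 (r = 0.90), and for Rnf43 Spns2 (r = 0.98), Sphk2 (r = 0.97) and Npepl1 (r = 0.97). For Lgr5 they were Nat8f4 (r = 0.94), Ulk3 (r = 0.92) and Itga5 (r = 0.91), and for Tbx3 Nr0b2 (r = 0.91), which encodes the bile acid responsive repressor SHP, Epb41l4aos (r = 0.91) and Mbd2 (r = 0.91). No member was among the closest 3 genes of another member. These values share the 12 libraries and their scaling, and they describe the profiles without a test.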

How the data were processed

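Liver RNA-seq of 12 mouse libraries was deposited by the authors as 1 table of TPM per gene, rounded to 2 decimals. The submitters' processing notes name fastp, HISAT and RSEM, with no versions or order; genome build and annotation are named in none of the sources used here. Libraries were grouped by their titles and columns matched by description and replicate number. No library repeated another.

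Values were analysed as log2(TPM + 1), which understates fold changes of low genes, in the 10883 genes with a mean of at least 1 TPM. limma 3.58.1 in R 4.3.3 fitted 1 term, group, over the 12 libraries, with an intensity trend. Tests were two-sided, adjusted by Benjamini-Hochberg over all genes at 0.05. The fit was tested first on simulated data with each gene drawn separately. Those data held no shift shared by the genes of a library, so they do not show how the fit handles such libraries. Members and lists were chosen with earlier results of these data known. Named were the members, up to 4 most abundant genes of each related list and any called, and the 3 genes most like each member, of which 1 is not reported here. Alternatives covered pseudocount, filter, scaling, the replicate number as a block, the compared groups alone, each library's length slope and leaving out libraries. List medians without the libraries that stood apart were added after seeing the data. Promoters are RefSeq's on GRCm38.p6. Figures used matplotlib 3.10.9 in Python 3.11.15.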

Additional observations from a re-analysis of the deposited data

Results flagged for a closer look

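Lgr5 in young control library 1 stood at 0.43 TPM, against 1.2 to 1.35 TPM in the other 3 young control libraries. The gap to the nearest of them was 0.837 of the range of the group, above Dixon's 95% critical value for 4 samples. It was the 1 such value among 24 sets of 4 libraries looked at, where chance gives about 1 in 20. The same library had the lowest Rnf43 of the 12, at 1.25 TPM.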

How the results depend on the processing

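No member was called under any of the 23 alternatives of each comparison, or 22 for Axin2, Rnf43, Lgr5 and Tbx3, which a mean of at least 5 TPM removes; the smallest adjusted p was 0.216, for Tbx3 between treated and aged/doxo liver. Of 540 recomputed differences, 43 changed sign. Many of the 540 could not change. The replicate block, another filter, the compared groups alone and leaving out a library of the group not compared keep each difference as it was. The count of sign changes is therefore no measure of stability. Between treated and aged/doxo liver Tbx3 stayed above 0 (0.31 to 0.77). It had an unadjusted limma p under 0.05 in 20 of 22 alternatives, the exceptions being median-of-ratios scaling and quantile normalization. Both exceptions are rescalings, and many of the 22 kept this difference as it was by construction, so the count does not measure robustness. Rnf43 ranged there from 0.02, with the length slope as a covariate, to 0.77, and Oat from -0.11 to 0.64. An unadjusted p under 0.05 was also reached there by Rnf43 in 2 alternatives and by Lgr5 (-0.34) with the length slope. Between aged/doxo and young control liver Glul changed sign in 8 of 23 alternatives and Oat ranged from 0.01, without aged/doxo library 3, to 0.79. Between treated and aged/doxo liver the other scalings put the median of all genes between -0.0032 and 0.14, in place of 0.30, and that of the members between -0.03 and 0.12, in place of 0.29. Over all genes, 1 call between treated and aged/doxo liver became 0 to 2, 1 between aged/doxo and young control liver 0 to 3, and 3 between treated and young control liver 1 to 5 (5 without aged/doxo library 2 and with the total that leaves out the 50 most abundant genes). With the replicate number as a block, 0 members were called, and over all genes 0, 0 and 1 in the same order. Same-numbered libraries did not pair: their deviations correlated between -0.58 and 0.39, over 0.1 in 2 of 12 pairs, and a library was closest to its own number in 4 of 24 matches. Depth cannot be read from TPM, so how far it limits the low members, Axin2 and Lgr5, is unknown.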
